A study of Mus musculus with 30 samples.

Results

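The genes of prostaglandin E2 synthesis, breakdown and reception were followed in CT-26 and Colon 26, which are mouse colorectal carcinoma lines from BALB/c mice. They were 9 members chosen by name out of 53431 genes in the count table, and all 9 were found. They are the phospholipase Pla2g4a, the cyclooxygenases Ptgs1 and Ptgs2, the terminal synthase Ptges, the inactivating enzyme Hpgd and the receptors Ptger1, Ptger2, Ptger3 and Ptger4. The study sequenced poly-A RNA of each line grown in culture (n = 3 libraries per line) and of tumors grown from each line under the skin of female BALB/c mice, in the right flank (n = 4 per line and size). The tumors were taken at nominal sizes of 100, 400 and 800 mm3, which gave 8 groups and 30 libraries. The labels name no allele or transgene for any group. The labels name no agent for any single library, although their shared text describes antibody dosing, and no age of the mice was given. The question was how these closely related models differ in culture and as their tumors grow.

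Prostaglandins are lipid signals made from arachidonic acid. Cytosolic phospholipase A2, the product of Pla2g4a, frees arachidonic acid from membrane lipids, and the cyclooxygenases COX-1 (Ptgs1) and COX-2 (Ptgs2) turn it into prostaglandin H2. COX-1 is regarded as the steady form and COX-2 as the form induced by cytokines, growth factors and cell stress. Microsomal prostaglandin E synthase 1 (Ptges) makes prostaglandin E2, which acts on the receptors EP1 to EP4 (Ptger1 to Ptger4), and 15-hydroxyprostaglandin dehydrogenase (Hpgd) inactivates it. EP2 and EP4 raise cyclic AMP, EP3 mainly lowers it and EP1 acts through calcium. In colorectal tumors this pathway is known for high COX-2 and loss of Hpgd, and prostaglandin E2 is known to restrain T cells and natural killer cells.

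Pla2g4a (ENSMUSG00000056220.14) and Ptgs2 (ENSMUSG00000032487.8) lie next to each other on chromosome 1 of GRCm38. Pla2g4a spans chr1:149829618-149961290 on the minus strand and Ptgs2 spans chr1:150100031-150108227 on the plus strand, so that their annotated starts face away from each other across 138.7 kb. The annotation placed 3 genes between the starts (Gm19136, Gm44329 and Ptgs2os), 0 of them protein-coding. Ptgs1 (ENSMUSG00000047250.13, chr2:36230426-36252272) and Ptges (ENSMUSG00000050737.13, chr2:30889471-30929863) are on chromosome 2. Hpgd (ENSMUSG00000031613.9, chr8:56294585-56321043) and Ptger1 (ENSMUSG00000019464.6, chr8:83666678-83672753) are on chromosome 8. The other receptor genes are Ptger2 (ENSMUSG00000037759.6, chr14:44988195-45003820), Ptger3 (ENSMUSG00000040016.16, chr3:157566892-157645888) and Ptger4 (ENSMUSG00000039942.15, chr15:5206661-5244187).

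The 250 bases before a RefSeq start (GRCm38.p6) are shown for the pair that fell together from culture to tumor, Ptgs2 (chr1:150099781-150100030, plus strand) and Pla2g4a (chr1:149961291-149961540, minus strand). They are also shown for Ptgs1 (chr2:36230176-36230425, plus strand), which was not DE (differentially expressed) in that step. Each reads 5′ to 3′ toward the gene, and capitals mark letters of the motifs searched on both strands.
Ptgs2: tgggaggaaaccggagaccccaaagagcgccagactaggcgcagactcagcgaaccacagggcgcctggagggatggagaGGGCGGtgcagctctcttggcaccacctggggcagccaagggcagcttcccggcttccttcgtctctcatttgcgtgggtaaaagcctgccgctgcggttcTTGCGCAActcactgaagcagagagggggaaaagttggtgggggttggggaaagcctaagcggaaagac
Pla2g4a: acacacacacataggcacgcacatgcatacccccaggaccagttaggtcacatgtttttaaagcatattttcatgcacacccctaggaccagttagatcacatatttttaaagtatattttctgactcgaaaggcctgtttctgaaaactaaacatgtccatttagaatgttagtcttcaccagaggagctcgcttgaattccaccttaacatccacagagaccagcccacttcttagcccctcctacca
Ptgs1: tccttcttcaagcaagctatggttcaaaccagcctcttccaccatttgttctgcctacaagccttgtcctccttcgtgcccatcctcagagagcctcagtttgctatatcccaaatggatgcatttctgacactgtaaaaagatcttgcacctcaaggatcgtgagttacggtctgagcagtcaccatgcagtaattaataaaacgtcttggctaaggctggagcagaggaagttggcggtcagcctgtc
The capitals before Ptgs2 are the GC box GGGCGG, which 32.7% of the 32851 windows of this length held, and the C/EBP palindrome TTGCGCAA, which 0.164% held. Neither motif was found before Pla2g4a or Ptgs1. The windows shown for the 3 genes held none of the other motifs searched, namely the CRE core CGTCA, the TATA box TATAAA, the CCAAT box CCAAT, the E-box CACGTG and the NF-kB core GGGANTTCC. Pla2g4a has another RefSeq start, whose window (chr1:149922440-149922689, minus strand) is not shown. That window held the TATA box on the opposite strand (TTTATA), a motif that 12.4% of all windows held. Just after the annotated start of Ptgs2, on the plus strand at chr1:150100032-150100061, a stretch of 30 bases held a CRE core that overlaps an E-box, shown in capitals.
Ptgs2 site: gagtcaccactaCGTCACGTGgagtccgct
Among all windows that also included the first 50 bases of the gene, 0.451% held CGTCACGTG on either strand, and Ptgs2 was the only member that did. These matches describe the letters only, and no factor's binding was measured.

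Total counts per library ran from 21384730 to 39722586, and the Colon 26 cultures (36042940 to 39722586) were read more deeply than the CT-26 cultures (21384730 to 27856380). The library numbers in the labels fell into 3 separate runs, for the tumors, the CT-26 cultures and the Colon 26 cultures, so in culture, and between culture and tumor, the group and the run of library numbers cannot be told apart. Within the tumors, the numbers also lay in separate blocks by model and size, so group and number order cannot be told apart there either. Levels are given as CPM (counts scaled to library size by TMM factors), and levels of different genes are compared only as FPKM, which divides by gene length. A gene was called differentially expressed (DE) when its adjusted p did not exceed 0.1 and its log2 fold change reached 1 in size, by edgeR's quasi-likelihood test with Benjamini-Hochberg adjustment over all genes tested. The labels do not say that replicate cultures were grown separately, so those p-values measure the spread between these libraries. Epithelial markers were low for carcinoma lines: Epcam had 0 counts in all 6 cultures and Cdh1 at most 2. Krt18 was at 15.7 ± 0.473 CPM (SD, n = 3) in CT-26 culture and at most 3 counts in Colon 26 culture, whereas the colon factor Cdx2 was at 6.22 ± 0.245 CPM (SD, n = 3) in Colon 26 culture and 0.152 ± 0.0872 CPM (SD, n = 3) in CT-26 culture. In these bulk samples, fewer cells of a type and less RNA per cell cannot be told apart.

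**Figure D1:**
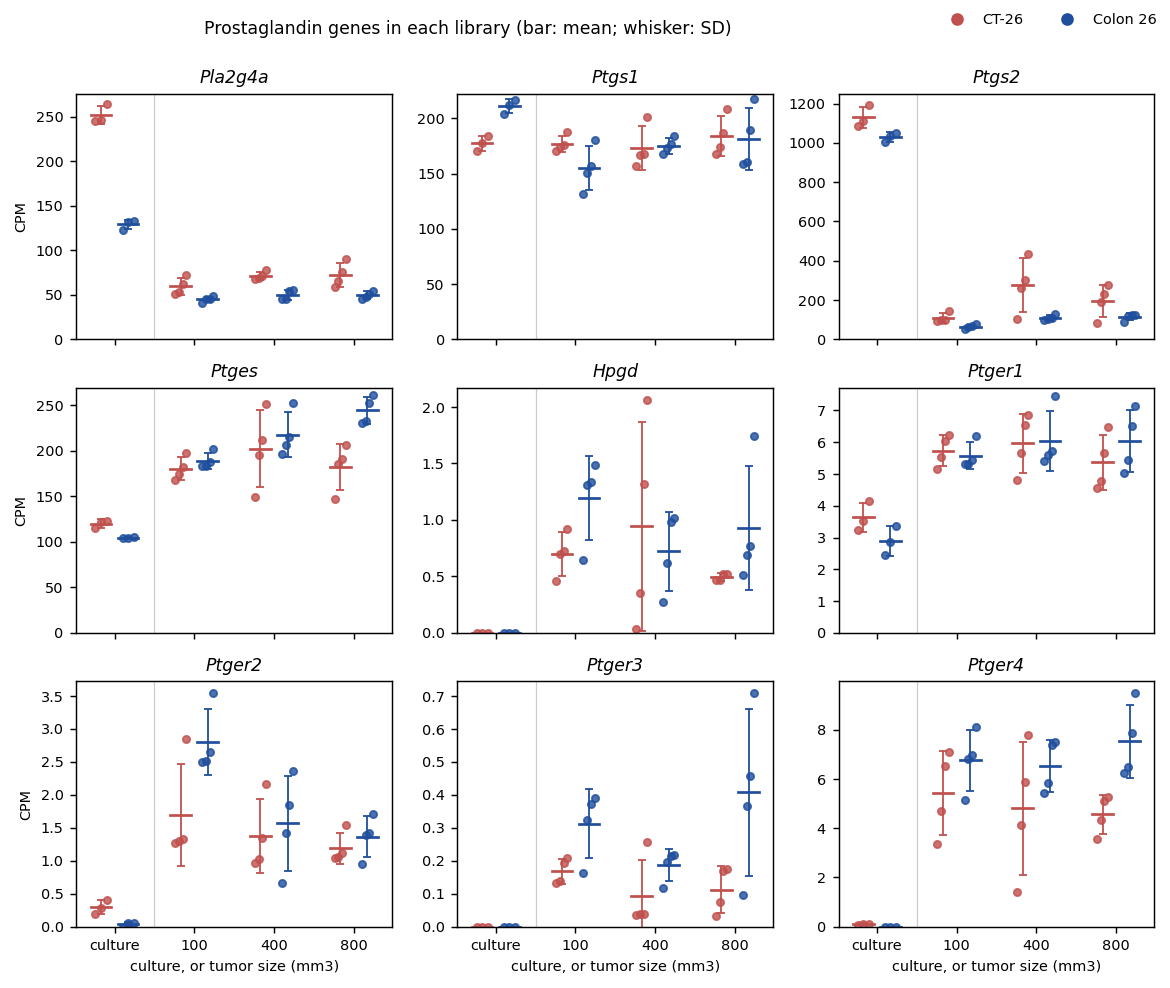
CPM of the 9 members (y axis, a separate scale from 0 in each panel) in culture and in tumors of 100, 400 and 800 mm3 (x axis), with a point per library, a bar for the group mean and a whisker for the SD (n = 3 cultures, n = 4 tumors). Ptgs2 and Pla2g4a are highest in culture, Ptgs1 group means stay between 155 and 211, and Hpgd, Ptger2, Ptger3 and Ptger4 are at or near 0 in culture.

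To see which pathway genes differ between cells in a dish and the same line as a small tumor, tumors of 100 mm3 were compared with culture within each model. In CT-26, 5 of the 8 members tested were DE, 3 higher and 2 lower in tumors, where 32.2% of all genes tested were called (22.2% higher and 10.1% lower). In Colon 26, 7 of 9 were DE, 5 higher and 2 lower, where 26.9% of all genes tested were called (20.8% higher and 6.11% lower). Ptgs2 and Pla2g4a were lower in tumors of both models, and the receptors Ptger2 and Ptger4 and the inactivating enzyme Hpgd were higher in both. The median log2 fold change of the members tested was 0.61 in CT-26 and 1.03 in Colon 26, beside 0.06 and 0.05 over all genes. Setting genes near 0 in culture to their bounds could not move these medians, since those genes stayed above them. The median lay between Ptges and Ptger1 in CT-26 and at Ptger1 in Colon 26, and the counts of Ptger1 were not whole numbers. These 5 and 7 became 2 and 3 when at least 10 counts were required in every library, since Ptger2, Ptger3, Ptger4 and Hpgd then left the test. Where tested, those genes passed the main filter through the tumors alone, so they could be called higher but not lower. They were 3 and 3 by limma on log2(FPKM + 1), 5 and 6 by limma on log2(FPKM + 0.1) and 6 and 7 by DESeq2.

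Pla2g4a, which releases the substrate, was at 246, 246 and 264.0 CPM in the CT-26 cultures and at 50.4, 53.5, 62.0 and 72.2 CPM in the CT-26 tumors of 100 mm3. In Colon 26 the cultures were at 123.0, 132.0 and 132 CPM and the tumors at 40.8, 45.1, 45.6 and 48.2 CPM. Every culture lay above every tumor in both models, and CT-26 cultures lay above Colon 26 cultures. The fall was 4.25-fold in CT-26 (log2 fold change -2.09, SE 0.12, adjusted p = 2.78e-06) and 2.71-fold in Colon 26 (-1.44, SE 0.06, adjusted p = 6.99e-08). The fall was smaller in Colon 26 by 0.60 on the log2 scale (SE 0.14, adjusted p = 0.00374, edgeR interaction term), a difference under the fold minimum. The model difference was thus wider in culture than in small tumors.

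Per length, Ptgs2 was the most abundant member in culture, at a mean of 254 FPKM in CT-26 and 229 FPKM in Colon 26. It was at 1084, 1113 and 1190.0 CPM in the CT-26 cultures and at 91.7, 98.8, 99.9 and 145 CPM in the CT-26 tumors of 100 mm3. The Colon 26 cultures were at 1003, 1037 and 1049 CPM and the tumors at 53.1, 61.0, 70.1 and 75.7 CPM. No tumor of any size reached a culture, and the highest tumor of all, a CT-26 tumor of 400 mm3, was at 437 CPM. Ptgs2 fell 10.4-fold in CT-26 (log2 fold change -3.38, SE 0.15, adjusted p = 9.99e-07) and 15-fold in Colon 26 (-3.91, SE 0.11, adjusted p = 9.70e-09). The fall in Colon 26 was larger by 0.57 on the log2 scale (SE 0.20, adjusted p = 0.0321), again under the fold minimum.

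Ptgs1 gave a contrast to Ptgs2. Its group means ran only from 155 to 211 CPM over all 8 groups, and it was at 177 ± 6.9 CPM (SD, n = 3) in CT-26 culture and 177 ± 7.3 CPM (SD, n = 4) in CT-26 tumors of 100 mm3. The log2 fold change in CT-26 was -0.01 (95% interval -0.14 to 0.12, adjusted p = 0.879). In Colon 26 it was -0.36 (SE 0.08, adjusted p = 0.00362), with cultures at 204, 212 and 216 CPM and tumors at 132, 151, 157 and 181 CPM. Those groups did not overlap, but the difference stayed under the fold minimum, and the interaction was -0.40 (SE 0.11, adjusted p = 0.00715). The counts of Ptgs1 were not whole numbers in 5 of the 30 libraries, and its annotated exons share 148 bases with Gm43621 on the opposite strand.

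The makeup of cyclooxygenase RNA differed between culture and tumor. Ptgs2 made up 80.4% ± 0.24 (SD, n = 3) of the summed Ptgs1 and Ptgs2 FPKM in CT-26 culture and 75.9% ± 0.68 (SD, n = 3) in Colon 26 culture. In tumors of 100 mm3 its share was 28.2% ± 4.8 (SD, n = 4) in CT-26 and 21.4% ± 3.7 (SD, n = 4) in Colon 26. Ptgs1 was thus the larger part in every tumor of that size in both models, where the highest Ptgs2 share was 35.4%.

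**Figure D2:**
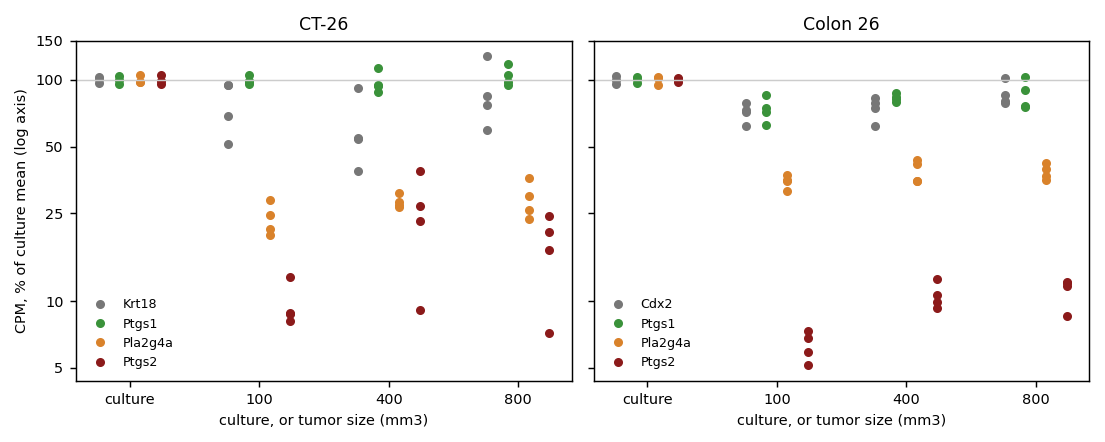
CPM of Ptgs2, Pla2g4a, Ptgs1 and a further gene (Krt18 for CT-26, Cdx2 for Colon 26) as a percent of the culture mean of the same line (y axis, log scale), by culture and tumor size in mm3 (x axis), with a point per library. Ptgs2 lies at 7.17% to 38.7% of culture in CT-26 tumors and 5.15% to 12.6% in Colon 26 tumors, below that gene in every tumor group.

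Markers of host cells moved with these differences. The summed CPM of 5 macrophage markers was 58.6 to 67.9 in CT-26 culture and 835 to 1189 in CT-26 tumors of 100 mm3, and 3.96 to 4.97 and 1070.0 to 1220.0 in the same groups of Colon 26, where Adgre1, Csf1r and C1qa were at 3 counts or fewer in culture. The 5 fibroblast markers summed to 31.1 to 35.8 CPM in CT-26 culture and 756.5 to 1518 CPM in its tumors, and to 39.0 to 41.1 and 1315 to 1861 CPM in Colon 26. Krt18 and Cdx2, each of which had clear counts in the culture of 1 line and were chosen after their values were seen, moved less than Ptgs2. Krt18, which had at most 3 counts in Colon 26 cultures and in Colon 26 tumors of 100 and 400 mm3, was in CT-26 tumors at a median of 72.9% of its CT-26 culture level (range 38.9% to 128.0%, n = 12 tumors of all sizes), whereas Ptgs2 was at a median of 14.95%. Cdx2, low in CT-26, was in Colon 26 tumors at a median of 78.8% of its Colon 26 culture level (range 62.1% to 102%, n = 12), whereas Ptgs2 was at a median of 9.66%. Neither gene is shown to be particular to the implanted cells. In Colon 26 tumors of 800 mm3 Krt18 reached 144 counts, and the epithelial gene Cdh1, with 1 count in each CT-26 culture, was DE higher in CT-26 tumors of 100 mm3 (0.747 to 1.82 CPM). The part of host cells in the culture-to-tumor differences was not tested.

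Ptges was also at a higher level in tumors. It was at 120 ± 4.8 CPM (SD, n = 3) in CT-26 culture and 181 ± 13 CPM (SD, n = 4) in CT-26 tumors of 100 mm3, with no overlap between groups (log2 fold change 0.58, SE 0.06, adjusted p = 6.87e-05). In Colon 26 culture it was at 105 ± 1.0 CPM (SD, n = 3) and in tumors at 189 ± 8.7 CPM (SD, n = 4), which was 0.93 on the log2 scale (SE 0.04, adjusted p = 6.97e-08). Both values passed the p threshold and missed the fold minimum, so Ptges was not called DE. The difference between the models' changes was 0.30 (SE 0.07, adjusted p = 0.00324).

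Hpgd had 0 counts in all 6 cultures. In tumors of 100 mm3 it had 11, 21, 21 and 24 counts in CT-26 (0.457, 0.696, 0.722 and 0.922 CPM) and 24, 33, 40 and 40 counts in Colon 26 (0.649 to 1.49 CPM). Against a floor of 3 counts per culture library, it was at least 5.66-fold higher in CT-26 tumors and at least 15.1-fold higher in Colon 26 tumors (adjusted p = 0.000305 and 5.72e-05). Hpgd was nevertheless low beside the synthases, at a mean of 0.416 FPKM in CT-26 and 0.729 FPKM in Colon 26 tumors of 100 mm3, where Ptges was at 49.3 and 53.2 FPKM. The log2 ratio of Ptges to Hpgd FPKM was 6.94 ± 0.50 (SD, n = 4) and 6.26 ± 0.52 (SD, n = 4).

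Ptger4, the EP4 receptor, had 1, 3 and 3 counts in the CT-26 cultures and 0 in each Colon 26 culture. In tumors of 100 mm3 it was at 3.36, 4.69, 6.53 and 7.09 CPM in CT-26 and at 5.13, 6.83, 6.98 and 8.13 CPM in Colon 26. The ratio of tumor to culture in CT-26 was 58.1 (95% exact counting interval 28.0 to 145, counting error only), and Ptger4 was at least 85.5-fold higher in Colon 26 tumors against 3 counts per library. Both rises were DE (adjusted p = 1.03e-05 and 1.03e-06). The annotated exons of Ptger4 share 1097 bases with Ttc33 and Gm15937 on the opposite strand, and how the authors' counting treated strand is not given in the sources used here.

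Ptger2, the EP2 receptor, had 5, 7 and 9 counts in the CT-26 cultures and 0, 2 and 2 in the Colon 26 cultures. In tumors of 100 mm3 it was at 1.27, 1.31, 1.33 and 2.85 CPM in CT-26 and 2.50, 2.52, 2.65 and 3.54 CPM in Colon 26. It rose 5.75-fold in CT-26 (log2 fold change 2.52, SE 0.45, adjusted p = 0.00121), and the Colon 26 ratio of tumor to culture was 81.6 (95% exact counting interval 31.6 to 301.0, adjusted p = 1.77e-06). Ptger3 had 0 counts in all cultures, 4 to 5 counts in CT-26 and 6 to 12 counts in Colon 26 tumors of 100 mm3. It was at least 3.95-fold higher in Colon 26 tumors than in culture (adjusted p = 0.000524) and was not tested in CT-26, where it had too few counts. Of the exon bases of Ptger2, 390 overlap the opposite-strand transcripts Gm49364 and Gm17173. DESeq2 and the fit of all 30 libraries, which did test Ptger3 in CT-26, called it higher in tumors (adjusted p = 0.012 and 0.00139).

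Ptger1 was at 3.64 ± 0.46 CPM (SD, n = 3) in CT-26 culture and 5.74 ± 0.49 CPM (SD, n = 4) in CT-26 tumors of 100 mm3 (log2 fold change 0.65, SE 0.16, adjusted p = 0.00635). In Colon 26 it went from 2.90 ± 0.46 CPM (SD, n = 3) to 5.58 ± 0.42 CPM (SD, n = 4), which was DE (log2 fold change 1.03, SE 0.14, adjusted p = 0.000123). That call was lost without culture replicate 1 (0.92) or tumor replicate 2 (0.97), with scaling by library size alone (log2 fold change 0.999) and by limma. The counts of Ptger1 were not whole numbers in any of the 30 libraries, whereas those of Ptger2, Ptger3 and Ptger4 were whole in all, so the values of Ptger1 are uncertain.

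Among the receptors in tumors, with Ptger1 left out, Ptger4 made up most of the FPKM summed over Ptger2, Ptger3 and Ptger4. Its share was 75.2% ± 6.0 (SD, n = 4) in CT-26 and 69.1% ± 4.1 (SD, n = 4) in Colon 26 tumors of 100 mm3. Across the 6 tumor groups the mean share ran from 69.1% to 80.6%. The order of mean FPKM among these receptors was Ptger4, Ptger2, Ptger3 in each of them. Ptger1, whose values are uncertain, had a mean FPKM between those of Ptger4 and Ptger2 in each tumor group. At 100 mm3 it was at 1.22 FPKM in CT-26 and in Colon 26, where Ptger4 was at 1.65 and 2.12 FPKM. The share of Ptger4 among all the receptors is thus smaller than these values.

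**Figure D3:**
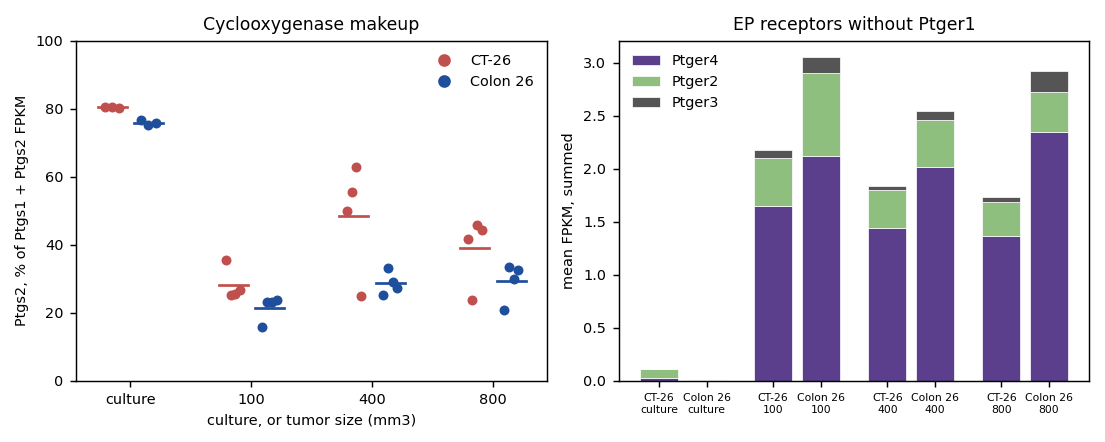
Left, Ptgs2 as a percent of summed Ptgs1 and Ptgs2 FPKM (y axis, 0 to 100) per library (points) with group means (lines), by culture and tumor size in mm3 (x axis). Right, stacked mean FPKM of Ptger4, Ptger2 and Ptger3 (y axis) per group, with Ptger1 left out. Ptgs2 holds 75.9% to 80.4% in culture and less in tumors, and Ptger4 is the tallest segment in each tumor group.

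The difference between the models' culture-to-tumor changes was DE for 2 of 8 members, Ptger2 and Ptger4, where 17.6% of all genes were called (edgeR interaction, adjusted p = 0.0014 and 0.00504). Both calls rest on cultures with few counts, at most 9 for Ptger2 and 3 for Ptger4, and the fitted sizes are no bounds. Neither gene could be tested when 10 counts were required in every library, and neither was called by limma on log2(FPKM + 1) (log2 differences 0.40 and 0.29, adjusted p = 0.0197 and 0.244). On log2(FPKM + 0.1) limma called Ptger2. No verdict was possible for Hpgd, with 0 counts in both sets of cultures.

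Of 55 other pathway genes, 22 of 45 tested were higher and 7 lower in CT-26 tumors of 100 mm3 than in culture, and 23 of 44 were higher and 4 lower in Colon 26. Of all genes tested, 22.2% were higher and 10.1% lower in CT-26, and 20.8% and 6.11% in Colon 26. Of the other terminal synthases, 6 of 9 were higher and 0 lower in CT-26, and 5 of 8 higher and 0 lower in Colon 26, with median log2 fold changes of 1.69 and 3.24 beside 0.06 and 0.05 over all genes. Genes near 0 in culture, such as Tbxas1, Hpgds and Fam213b, passed the low-count filter through the tumors alone. They could be called higher but not lower, which limits these counts and medians. Tbxas1, which makes thromboxane, went from 0.051 ± 0.0566 CPM (SD, n = 3) in CT-26 culture to 20.2 ± 7.4 CPM (SD, n = 4) in tumors, and Hpgds, the hematopoietic prostaglandin D synthase, from 0.0738 ± 0.0944 to 10.9 ± 3.66 CPM. In Colon 26 tumors they stood at 27.8 ± 3.5 and 12.01 ± 1.88 CPM (SD, n = 4). Ptgis, the prostacyclin synthase, rose by log2 fold changes of 1.41 in CT-26 and 4.99 in Colon 26, and the carbonyl reductase Cbr1 by 2.49 and 1.49. Fam213b, a prostamide and prostaglandin F synthase, had at most 2 counts in any culture and was at 3.49 and 4.60 CPM in the tumors. Ptgds rose in CT-26 (1.69). In Colon 26 it was not tested for low counts, with 2 to 3 in culture and 5 to 13 in tumors (means of 0.0612 and 0.257 CPM).

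In the leukotriene branch 5 of 6 genes tested were higher in CT-26 and 6 of 7 in Colon 26, and 0 were lower. Of all genes tested, 22.2% and 20.8% were higher. Alox5, Ltc4s, Cysltr1 and Ltb4r1 had at most 3 counts in any culture and passed the low-count filter through the tumors alone. They could be called higher but not lower, so these counts are no measure of the branch against all genes. Alox5, the 5-lipoxygenase, had at most 1 count in any culture and was at 6.83 ± 2.88 CPM (SD, n = 4) in CT-26 and 9.29 ± 4.15 CPM (SD, n = 4) in Colon 26 tumors of 100 mm3. Its activating protein Alox5ap rose by log2 fold changes of 4.62 and 5.73. The leukotriene C4 synthase Ltc4s and the leukotriene receptors Cysltr1 and Ltb4r1 had at most 3 counts in any culture and stood at 1.07, 13.3 and 5.06 CPM in CT-26 and at 2.39, 21.6 and 11.1 CPM in Colon 26 tumors, and Cysltr2 was called in Colon 26 (0.438 CPM).

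Phospholipases went both ways. Pla2g15 rose (log2 fold change 1.02 in CT-26, 1.77 in Colon 26), and Pla2g16, with at most 7 counts in any culture, was at 14.6 and 12.01 CPM in tumors. Pla2g12a fell (-2.21 and -1.33), and so did the secreted Pla2g2e (-6.11 and -2.46). The sizes for Pla2g2e rest on few tumor counts, 5 to 19 in CT-26 and 1 to 4 in Colon 26. In CT-26 Pla2g4c rose (1.60) and Pla2g4b (-1.69), Pla2g5 (-1.34) and Pla2g6 (-1.10) fell, and in Colon 26 Pla2g7 rose (1.28). The prostaglandin exporter Abcc4 fell with Ptgs2, from 219 ± 17 to 43.3 ± 4.6 CPM in CT-26 (log2 fold change -2.35, SE 0.09, adjusted p = 7.09e-07) and from 167 ± 7.0 to 43.2 ± 0.73 CPM in Colon 26 (-1.87, SE 0.04, adjusted p = 1.13e-09). The uptake carrier Slco2a1 rose 9.97-fold and 24.9-fold (adjusted p = 4.65e-06 and 5.69e-08). Of the other prostanoid receptors, Ptgfr, for prostaglandin F, had 0 counts in culture and was at 0.691 and 1.16 CPM in tumors, and the prostacyclin and thromboxane receptors Ptgir (log2 fold change 2.24) and Tbxa2r (1.98) rose in Colon 26.

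Of the cytokines known to induce Ptgs2, Il1b and Tnf were higher in tumors of both models and Il1a in CT-26 (log2 fold change 1.37). Tnf had at most 1 count in any culture and was at 2.96 ± 1.95 CPM (SD, n = 4) in CT-26 and 3.14 ± 1.24 CPM (SD, n = 4) in Colon 26 tumors. Il1b had at most 3 counts in any culture and was at 14.9 ± 6.4 CPM (SD, n = 4) in CT-26 and 7.997 ± 3.89 CPM (SD, n = 4) in Colon 26 tumors of 100 mm3. Of 8 early genes known to be induced through cyclic AMP, Nr4a3 (log2 fold change 3.62 in CT-26, 4.06 in Colon 26), Per1 (1.98, 2.56) and Sik1 (1.69, 1.39) were higher and Areg was lower in both models. Areg, an EGFR ligand, fell from 48.4 ± 1.8 to 8.47 ± 2.8 CPM in CT-26 (log2 fold change -2.53, SE 0.23, adjusted p = 2.78e-05) and from 12.4 ± 0.66 to 1.43 ± 0.67 CPM in Colon 26 (-3.07, SE 0.31, adjusted p = 2.09e-05). The change differed between models for 11 of 46 other pathway genes tested, where 17.6% of all genes tested were called. As log2 change in Colon 26 minus that in CT-26, it was positive for Pla2g4b (1.72), Pla2g5 (1.04), Ptgis (3.54), Ptgir (1.52), Slco2a1 (1.27) and Alox5ap (1.07). It was negative for Pla2g4c (-1.04), Cbr1 (-1.05) and Ptgr1 (-1.04). Ptgr1 rose from 5.38 to 8.75 CPM in CT-26 and fell from 24.6 to 18.9 CPM in Colon 26. Pla2g2e was positive too, but had 13 to 26 counts in Colon 26 culture and 1 to 4 in its tumors. A fall like that in CT-26 could not be seen there, so no size is given. The other gene called, Fam213b, had 0 to 2 counts in the cultures of both models, so no size of its difference is given. The cultures and the tumors of 100 mm3 also enter the comparisons of models and sizes that follow.

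To see how the models differ, Colon 26 was compared with CT-26 in culture and at each size. In culture 1 of 5 members tested was DE, where 22.9% of all genes were called. Pla2g4a was 2.001-fold lower in Colon 26 (log2 fold change -1.001, SE 0.03, adjusted p = 8.52e-14), on the edge of the fold minimum. The call was lost without CT-26 culture replicate 1 or 2 or Colon 26 culture replicate 2, with library-size scaling, without the low-count filter, and by DESeq2 and limma, where the log2 fold change ran from -0.93 to -0.998. Ptgs1 (0.21), Ptgs2 (-0.17) and Ptges (-0.23) differed with small adjusted p (9.28e-06, 2.03e-05 and 2.39e-06) and log2 fold changes far under the minimum. Ptger2 had 21 counts over the CT-26 cultures and 4 over the Colon 26 cultures, a ratio of 8.16 (95% exact counting interval 2.75 to 32.7), and with Ptger4 it was untested here for low counts but called lower in Colon 26 by DESeq2 and in a fit of all 30 libraries.

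In tumors of 100 mm3 edgeR called 0 of 8 members, where 13.2% of all genes were called, and DESeq2 and limma called 0. An unadjusted p under 0.05 was reached by 4 of the 8 members and by 55.5% of all genes tested. Ptgs2 was lower in Colon 26 in every library (53.1 to 75.7 against 91.7 to 145 CPM), with a log2 fold change of -0.75 (SE 0.17, adjusted p = 0.00557), and Pla2g4a was at a lower level too (-0.41, SE 0.11, adjusted p = 0.0143). Ptger2 was at 2.50 to 3.54 CPM in Colon 26 and 1.27 to 2.85 CPM in CT-26 (0.73, SE 0.29, adjusted p = 0.0649), and without CT-26 replicate 2, the tumor at 2.85 CPM, it was DE (1.10, adjusted p = 0.00218).

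In tumors of 400 mm3 Ptgs2 was the 1 member of 8 that was DE, where 14.3% of all genes were called. It was at 103, 260.2, 304 and 437 CPM in CT-26 and at 96.1, 103, 109.8 and 129.5 CPM in Colon 26. The 3 other CT-26 tumors lay above every Colon 26 tumor, and the CT-26 tumor at 103 CPM lay within their range. Ptgs2 was 2.52-fold lower in Colon 26 (95% interval 1.44 to 4.42, log2 fold change -1.33, SE 0.36, adjusted p = 0.0146), and it was DE in every setting tried, with log2 fold changes from -1.02 (without CT-26 replicate 3) to -1.61 (without replicate 4). The Ptgs2 share of cyclooxygenase FPKM was 48.3% ± 17 (SD, n = 4) in CT-26 and 28.7% ± 3.4 (SD, n = 4) in Colon 26, and exceeded 50% in 2 CT-26 tumors. Pla2g4a was lower in Colon 26 in every library (44.9 to 55.9 against 67.3 to 77.7 CPM), with a log2 fold change of -0.51 (SE 0.09, adjusted p = 0.00149), under the fold minimum.

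Other genes and markers also differed between the models at 400 mm3, some in the direction of Ptgs2 and some in the other. Il1b, an inducer, was at 36.7 ± 17 CPM (SD, n = 4) in CT-26 and 11.8 ± 5.7 CPM (SD, n = 4) in Colon 26 (log2 fold change -1.62, SE 0.49, adjusted p = 0.025). The 5 neutrophil markers summed to 15.6 to 54.2 CPM in CT-26 and 3.59 to 11.7 CPM in Colon 26, with Ly6g at 3 counts or fewer in both, and 4 of the 4 tested were DE lower in Colon 26. The 6 mast cell markers summed to 34.8 to 93.8 and 6.41 to 13.8 CPM. Their sum was also lower in Colon 26 at 100 mm3 (61.5 to 170.3 against 10.9 to 17.6 CPM) and at 800 mm3. The T cell markers Cd3e, Cd3d and Cd8a and the platelet genes Ppbp and Itga2b were also DE lower in Colon 26, although the summed levels overlapped (8.67 to 40.4 against 3.17 to 9.68 CPM for 4 T cell markers, and 9.75 to 21.97 against 7.92 to 21.99 CPM for 4 platelet markers). The CT-26 tumor with the most Ptgs2 (437 CPM) also had the lowest macrophage sum of its group (209, with the others reaching 736 CPM), the lowest Ptger4 (1.39 CPM) and 1 count of Hpgd. In the other direction, Csf1r of the macrophage markers, Pdgfra and Lum of the fibroblast markers, Krt19 and Cdx2 were DE higher in Colon 26. The fibroblast markers Dcn and Dpt and the epithelial marker Krt18 were DE lower. The part of these cells and markers in the Ptgs2 difference was not tested.

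In tumors of 800 mm3 edgeR called 0 of 8 members, where 14.1% of all genes were called. An unadjusted p under 0.05 was reached by 5 of the 8 members and by 58.0% of all genes tested. DESeq2 called 1, Ptger3, which the low-count filter kept out of the edgeR test, and limma called 0. Ptgs2 was at 81.0, 192, 231 and 274 CPM in CT-26 and 88.9, 120.3, 125 and 126 CPM in Colon 26. The CT-26 tumor at 81.0 CPM lay below all Colon 26 tumors and the other CT-26 tumors lay above them. The log2 fold change was -0.77 (SE 0.30, adjusted p = 0.0524), and without that tumor, replicate 2, it was -1.03 (adjusted p = 0.000537) and DE.

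The other members tested at 800 mm3 differed by less than the fold minimum. Ptges was higher in Colon 26 in every library (231 to 261 against 147 to 206 CPM, log2 fold change 0.41, SE 0.10, adjusted p = 0.00521). Ptger4 was also higher in every Colon 26 library (6.25 to 9.49 against 3.55 to 5.26 CPM, 0.71, SE 0.18, adjusted p = 0.00724). Pla2g4a was lower in every Colon 26 library (45.4 to 54.6 against 59.2 to 90.6 CPM, -0.56, SE 0.12, adjusted p = 0.0033). Hpgd was at 0.465 to 0.525 CPM in CT-26 and 0.512 to 1.74 CPM in Colon 26 (0.91, SE 0.38, adjusted p = 0.0692), and became DE without Colon 26 replicate 3 (1.04) or 4 (1.10). Ptger3 had 1, 2, 5 and 6 counts in CT-26 and 3, 10, 14 and 24 in Colon 26, and by DESeq2 its log2 fold change was 1.86 (adjusted p = 0.0468). The summed macrophage markers overlapped at this size (727 to 863 CPM in CT-26, 842 to 1249 CPM in Colon 26). The mast cell markers (58.1 to 129 against 6.78 to 9.73 CPM), the neutrophil markers (16.4 to 71.8 against 11.04 to 12.07 CPM) and the skeletal muscle markers (10.03 to 204 against 1.35 to 1.74 CPM) were lower in every Colon 26 library. The part of these markers in these differences was not tested.

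**Figure D4:**
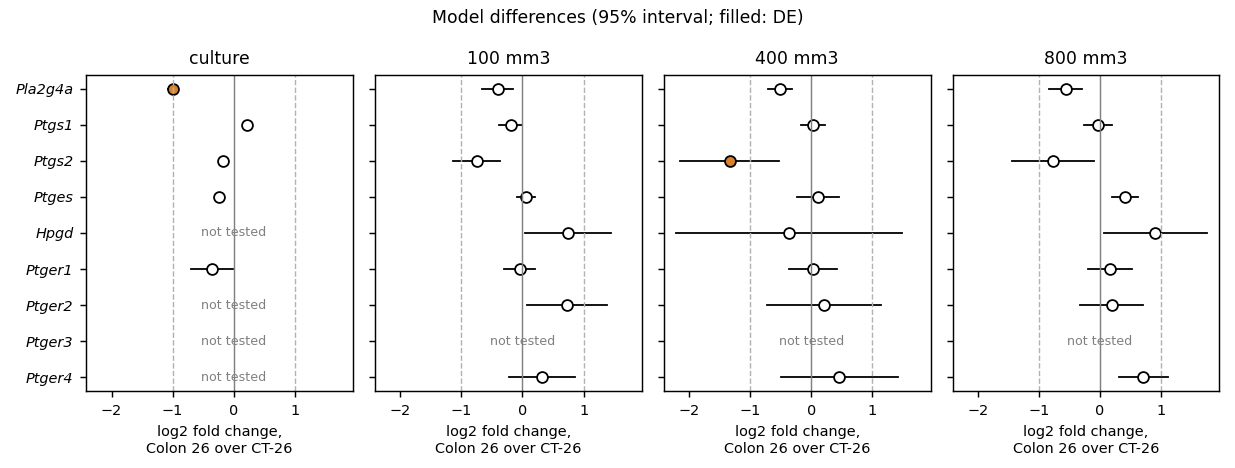
Log2 fold change of Colon 26 over CT-26 (x axis) for each member (y axis) in culture and at 100, 400 and 800 mm3, with 95% intervals from edgeR; filled points are DE and dashed lines mark the fold minimum of 1. Pla2g4a in culture (-1.001) and Ptgs2 at 400 mm3 (-1.33) are the filled points, and Ptgs2 and Pla2g4a lie left of 0 in all panels.

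Over culture and the 3 sizes, the members' median log2 fold change between models was -0.23, 0.01, 0.03 and 0.17, beside 0.01, -0.00, 0.03 and -0.01 over all genes tested. Of the other pathway genes, 2 of 31 tested were higher and 8 lower in Colon 26 culture, 3 of 45 higher and 5 lower at 100 mm3, 4 of 46 higher and 8 lower at 400 mm3, and 3 of 47 higher and 7 lower at 800 mm3. Over all genes tested, 22.9%, 13.2%, 14.3% and 14.1% were called in either direction. Ptgds, Ptgr1, Nr4a2 and Areg were DE in the same direction in each of these 4 comparisons. The share of all genes that did so was not counted, so whether this is unusual cannot be told. Ptgds, the lipocalin-type prostaglandin D synthase, was at mean levels of 1.61 to 2.98 CPM in CT-26 tumors and 0.247 to 0.315 CPM in Colon 26 tumors (log2 fold change -3.85 in culture, and -3.51, -2.52 and -2.73 by rising size). It had 2 to 3 counts in the Colon 26 cultures and 3 to 20 in Colon 26 tumors. These fitted sizes are therefore uncertain, and the culture value is no bound. Ptgr1, a prostaglandin reductase, was higher in Colon 26 (2.16, 1.10, 1.81 and 1.09).

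Nr4a2, a nuclear receptor and early gene, was at 22.99 ± 1.36 CPM (SD, n = 3) in CT-26 culture and 6.96 ± 0.584 CPM (SD, n = 3) in Colon 26 culture, and it was lower in Colon 26 by log2 fold changes of -1.76, -2.12, -2.05 and -1.63. Areg was lower in Colon 26 by -2.001, -2.59, -2.74 and -2.13. In culture Pla2g2e was at 33.8 ± 1.06 CPM (SD, n = 3) in CT-26 and 0.505 ± 0.152 CPM (SD, n = 3) in Colon 26 (log2 fold change -6.08, SE 0.10, adjusted p = 3.89e-17). Pla2g4b (-1.64), Pla2g12a (-1.39), Ptgis (-2.84) and Ptgir (-1.66) were also lower and Cbr1 (1.06) higher in Colon 26 culture.

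At 100 mm3 Pla2g4c (-1.22) was lower and Slco2a1 (1.23) and Ltb4r1 (1.14) higher in Colon 26. Fosb was called lower there (-2.92), with CT-26 counts from 311 to 7510 over its libraries and Colon 26 counts from 201 to 442. At 400 mm3 Pla2g2e (-3.23), Pla2g4c (-1.35), Cysltr2 (-1.36), Sik1 (-1.14) and Il1b were lower and Alox5 (1.18), Ltc4s (3.62) and Ltb4r1 (1.33) higher. Ltc4s had 3 to 7 counts in CT-26 and 12 to 213 in Colon 26, where its median was 0.804 CPM and its highest tumor 7.0 CPM. Pla2g2e had 15 to 29 counts in CT-26 and 1 to 5 in Colon 26. At 800 mm3 Pla2g2e (-4.21), Pla2g12a (-1.10), Tbxa2r (-1.06) and Cysltr2 (-1.03) were lower and Ptgis (1.11) and Ltc4s (1.52) higher. Pla2g2e had 20 to 115 counts in CT-26 and 1 to 6 in Colon 26 there, so its size is uncertain.

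With growth from 100 to 800 mm3, edgeR called 0 of 8 members in CT-26, where 0% of 15298 genes were called and 1610 genes had an unadjusted p under 0.05. Ptgs2 was the 1 member at an unadjusted p under 0.05, and DESeq2 and limma also called 0 members. Its log2 fold change was 0.84 (SE 0.32, adjusted p = 0.447), with 3 of 4 tumors of 800 mm3 above all tumors of 100 mm3. In Colon 26, 1 of 9 members was DE, where 1.33% of all genes were called. Ptger2 fell from 2.50, 2.52, 2.65 and 3.54 CPM to 0.951, 1.39, 1.42 and 1.70 CPM, without overlap (2.07-fold, log2 fold change -1.05, SE 0.21, adjusted p = 0.0354).

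This call lies near the fold minimum and was lost without the 100 mm3 tumor at 3.54 CPM, replicate 2 (-0.90), without the 800 mm3 tumor at 0.951 CPM, replicate 4 (-0.92), in the fit of all libraries (adjusted p = 0.138) and by limma. Ptgs2 was higher at 800 mm3 in every Colon 26 tumor (88.9 to 126 against 53.1 to 75.7 CPM, log2 fold change 0.81, SE 0.14, adjusted p = 0.0225), and so was Ptges (231 to 261 against 183.0 to 202 CPM, 0.36, SE 0.05, adjusted p = 0.0116). Both missed the fold minimum. The 5 skeletal muscle markers also moved with size in Colon 26, from summed levels of 114.5 to 1260.0 CPM at 100 mm3 to 1.35 to 1.74 CPM at 800 mm3. The mast cell markers summed to 10.9 to 17.6 CPM at 100 mm3 and 6.78 to 9.73 CPM at 800 mm3, with Tpsb2, Cma1 and Mcpt4 DE lower, and of the fibroblast markers Lum was DE lower. The part of these markers in the Ptger2, Ptgs2 and Ptges values was not tested.

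Of the other pathway genes, 0 of 47 tested were DE with growth in CT-26. In Colon 26 Il6, a cytokine, rose (log2 fold change 1.72, SE 0.20, adjusted p = 0.00574) and Per1, a clock gene also induced through cyclic AMP, fell (-1.5, SE 0.10, adjusted p = 0.000205). The difference between the models' changes from 100 to 800 mm3 was DE for 0 of 9 members by edgeR, where 0.0308% of all genes were called. Ptges had the 1 unadjusted p under 0.05, which 12.5% of all genes had (interaction 0.34, SE 0.12, adjusted p = 0.277), and DESeq2 and limma called 0. The 95% interval of that difference for Ptgs2 was -0.85 to 0.78.

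Ordered by mean CPM, the groups ran for Ptgs2 from the CT-26 and Colon 26 cultures (1129 and 1030.0), through CT-26 tumors of 400 mm3 (276) and 800 mm3 (195), to Colon 26 tumors of 800 mm3 (115) and 400 mm3 (109.6), CT-26 tumors of 100 mm3 (109) and Colon 26 tumors of 100 mm3 (65.0). Values of neighbors in this order overlapped, except between the CT-26 and Colon 26 cultures, between the cultures and the tumors, and between the last pair of groups. For Ptges the order ran from Colon 26 tumors of 800, 400 mm3 (244.5, 218), CT-26 tumors of 400 mm3 (202), Colon 26 tumors of 100 mm3 (189), and CT-26 tumors of 800 and 100 mm3 (182, 181) to the CT-26 and Colon 26 cultures (120.2, 105). Its neighbors overlapped except at the step to culture and between the cultures.

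Pla2g4a ran from the CT-26 and Colon 26 cultures (252, 129) through CT-26 tumors of 800, 400 and 100 mm3 (72.6, 71.2, 59.5) to Colon 26 tumors of 400, 800 and 100 mm3 (49.96, 49.65, 44.95), with no overlap between the cultures or between cultures and tumors. Ptgs1 was at 211 CPM in Colon 26 culture, 173 to 184 in the CT-26 groups, and 182, 175 and 155 in Colon 26 tumors of 800, 400 and 100 mm3. Hpgd was at 1.19 CPM in Colon 26 tumors of 100 mm3, 0.945 in CT-26 tumors of 400 mm3, 0.928 and 0.723 in Colon 26 tumors of 800 and 400 mm3, and 0.699 and 0.495 in CT-26 tumors of 100 and 800 mm3. The 400 mm3 CT-26 tumors spanned 0.0387 to 2.07 CPM, the range of all tumors, so this order of Hpgd does not separate them.

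Ptger4 was at 7.53, 6.77 and 6.54 CPM in Colon 26 tumors of 800, 100 and 400 mm3 and at 5.42, 4.80 and 4.57 CPM in CT-26 tumors of 100, 400 and 800 mm3, and neighbors overlapped. Ptger2 was highest in Colon 26 tumors of 100 mm3 (2.80) and stood at 1.19 to 1.69 in the other tumor groups, Ptger3 at 0.092 to 0.407, and Ptger1 at 5.37 to 6.05 in tumors.

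The genes whose log2 CPM was most like that of each member over the 30 libraries were, for Ptgs2, Ppp1r15a (Pearson r = 0.971), Plekha3 (0.97) and Eaf1 (0.969). For Pla2g4a they were Atp6v1c1 (0.983), Ube2w (0.982) and Cers2 (0.982). For Ptger4 they were Gatm, Plcb2 and Pld4 (0.994 to 0.993), and for Ptger2 Ccr1, Syk and Adap2 (0.961 to 0.959). For Ptges they were 1810026B05Rik, Pafah1b3 and Ankrd37 (0.92 to 0.916), for Ptger1 Gm38102, Prr5l and Cd72 (0.925 to 0.911), and for Ptgs1 Traf4, Gm20005 and Nudt22 (0.678 to 0.661). All of these libraries include the step from culture to tumor. With log2(FPKM + 1) in place of log2 CPM, 0 of the 3 genes were shared for Ptger2 and Ptger4 and 1 of 3 for Ptgs1, Ptges and Ptger1.

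Within tumors, after the mean of each of the 6 tumor groups was taken off, the most alike over 24 libraries were Plk2 (0.904), Nppb (0.889) and Nt5dc3 (0.874) for Ptgs2 and Pld4 (0.936), Wdfy4 (0.932) and Prcp (0.929) for Ptger4. For Ptger2 they were Sema4a, Fcgr3 and Pkib (0.855 to 0.816), for Pla2g4a Ttc39b, Lmo4 and Zdhhc21 (0.847 to 0.83), and for Ptges Drg2, Itpk1 and Rcor2 (0.857 to 0.834). For Ptger1 they were Nup210l, Lman2l and Gm49405 (0.773 to 0.738), and for Ptgs1 Zhx3, Map1a and Slc25a42 (0.775 to 0.758). Among the members themselves, Ptgs2 and Pla2g4a correlated at 0.91 over all libraries and at 0.33 within tumor groups. Ptgs2 and Ptger4 correlated at -0.91 over all libraries and at -0.55 within tumor groups. All of these values share libraries and depth and are given as descriptions.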

How the data were processed

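Poly-A RNA of 30 libraries was sequenced (TruSeq mRNA kit). The authors deposited estimated counts per gene, made with Array Studio and Ensembl release 78, of which 23.0% of the non-zero values were not whole, and FPKM values, which the authors normalized to gene length and depth. The aligner and the handling of strand are not given in the sources used here. The submitters' processing notes name DESeq2 1.24.0. Groups came from the labels, and replicate numbers follow accession order and pair nothing. Counts were rounded and tested in R 4.3.3 with edgeR 4.0.16 (TMM factors, filterByExpr, quasi-likelihood test, two-sided, Benjamini-Hochberg over all genes tested), using only the groups compared, or all groups of an interaction. The script was tested on simulated data. Alternatives were RLE factors, library size alone, no filter, a minimum of 10 counts per library, 1 fit of all 30 libraries, DESeq2 1.42.0, limma 3.58.1 on log2(FPKM + 1) and log2(FPKM + 0.1), and each replicate left out.

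Library totals of 21384730 to 39722586 set the precision of low genes. Bounds used a floor of 3 counts per library, and ratios have exact 95% intervals that cover counting error only. All 9 members were named, with those genes of 7 pathway lists that were DE and the 3 genes most alike to each member with a mean of at least 1 CPM (13456 genes with that mean). The members and lists were chosen with earlier results of these data known. Promoter letters came from RefSeq (GRCm38.p6) and gene positions from the GENCODE annotation of GRCm38. The exon overlap of 1 member is not reported here.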

Additional observations from a re-analysis of the deposited data

Results flagged for a closer look

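In 54 sets of 4 tumors (a member in a tumor group), 8 held a library that stood apart from the other 3 by the Dixon ratio, which chance gives in about 1 in 20 sets. For Ptgs2 these were replicate 1 of the CT-26 tumors of 100 mm3, at 145 CPM with the others at 91.7 to 99.9 CPM, and replicate 1 of the Colon 26 tumors of 800 mm3, at 88.9 CPM with the others at 120.3 to 126 CPM. Leaving out either did not make Ptgs2 DE between models or move it out of DE. For Ptger2 they were replicate 2 of the CT-26 tumors of 100 mm3 (2.85 CPM, others 1.27 to 1.33), replicate 3 of the CT-26 tumors of 800 mm3 (1.54 CPM, others 1.05 to 1.11) and replicate 2 of the Colon 26 tumors of 100 mm3 (3.54 CPM, others 2.50 to 2.65). For Ptger1 they were replicate 2 of the Colon 26 tumors of 100 mm3 (6.20 CPM, others 5.33 to 5.45) and replicate 1 of those of 400 mm3 (7.46 CPM, others 5.42 to 5.72). Ptger3 stood apart in replicate 4 of the CT-26 tumors of 400 mm3, at 0.255 CPM (6 counts), with 1 count in each other tumor.

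The change from culture to tumors of 100 mm3 differed between the models for 6 of 8 members by the adjusted p of edgeR's interaction test alone, and for 2 by the DE rule, which adds the fold minimum. All 6 had an unadjusted p under 0.05, as did 50.9% of all genes tested. As log2 differences, Colon 26 minus CT-26, these were -0.40 for Ptgs1 (adjusted p = 0.00715), -0.57 for Ptgs2 (0.0321), 0.30 for Ptges (0.00324), 0.60 for Pla2g4a (0.00374), 3.66 for Ptger2 (0.0014) and 4.91 for Ptger4 (0.00504). The last pair, Ptger2 and Ptger4, are the 2 DE, and their fitted sizes rest on cultures with at most 9 counts and are no bounds.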

How the results depend on the processing

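The tally that follows covers only members tested both in the main fit and under the alternative. Of these 1357 values, 1327 kept their side of the thresholds, 26 lost a call, 4 gained 1 and 0 reversed a called direction, while 45 uncalled values changed sign. Calls lost because a stricter filter removed a member, or gained where the main fit had not tested it, are outside this tally. Ptgs2 at 400 mm3 was DE in every setting, and the 0 calls for growth of CT-26 and for the model difference in growth were also 0 in every setting. For culture, 1 member DE became 0 with library size alone and by limma with either pseudocount, 2 without the filter and by DESeq2 (Ptger2 and Ptger4), 3 in 1 fit of all 30 libraries, and 0 to 1 with a replicate left out. At 100 mm3, 0 became 0 to 1 with a replicate left out. At 800 mm3, 0 became 1 without the filter, in the fit of all libraries and by DESeq2 (Ptger3), and 0 to 2 with a replicate left out. For tumor against culture, 5 in CT-26 became 2 at 10 counts in every library and 3 by limma with a pseudocount of 1 (5 with 0.1, 6 by DESeq2, and 5 to 5 with a replicate left out), and 7 in Colon 26 became 3 and 3 (6 with 0.1, 7 by DESeq2, and 6 to 7). For Colon 26 growth, 1 became 0 in the fit of all libraries and by limma with either pseudocount, and 0 to 1 with a replicate left out. For the model difference between tumor and culture, 2 became 0 at 10 counts in every library, 0 by limma with a pseudocount of 1 and 1 with 0.1 (2 to 2 with a replicate left out). The low counts of Hpgd, Ptger2, Ptger3 and Ptger4 in culture limit these calls, since a filter of 10 counts removes them. No paired analysis was possible because the labels give no pairing of samples.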
